A study of Homo sapiens with 24 samples.

Results

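Cells given siRNA against both Nrf2 and Pink1 were compared with cells given scramble siRNA, across all genes averaging 1 TPM or more across the 6 samples of these groups. TPM is transcript abundance per length of transcript, scaled to the same total in every sample. Of 24053 identifiers in the table, 13708 met this minimum. The cells are ARPE-19, an established human line of retinal pigment epithelium (RPE), the layer behind the photoreceptors. The 6 samples are 3 biological samples per group, each the mean of 2 technical replicates, out of 12 biological samples in 4 groups (scramble, Pink1 siRNA, Nrf2 siRNA and the double siRNA). The labels call the treated groups knockout or KD, while the series describes siRNA, so a lowered and not a deleted message is what the design implies. The labels' protocols also describe scratch wounding of confluent cells without stating if RNA came from wounded cells.

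PINK1 is a kinase that builds up on damaged mitochondria and marks them for mitophagy, the removal of mitochondria by autophagy. NRF2, the product of NFE2L2, is a transcription factor that turns on genes for glutathione and thioredoxin metabolism and quinone detoxification. In the RPE, which lives under strong light and high oxygen, both systems are known as protection against oxidative damage, and their loss is studied in relation to a shift of RPE cells towards a mesenchymal state that makes extracellular matrix.

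The line was checked against its markers. KRT8 and KRT18, keratins of simple epithelia, lay between 685 and 1017 TPM in the 6 samples, and the RPE transcription factors MITF and OTX2 between 47.7 and 110 TPM. RPE65, the visual cycle isomerase of mature RPE, reached at most 0.15 TPM, so this defining marker of RPE was at or near 0 in every sample. Other RPE markers were low too, BEST1 at 4.08 to 9.475 TPM and MERTK at 0.945 to 2.775 TPM. RLBP1 lay at 0.39 to 1.33 TPM with scramble and at 1.985 to 3.69 TPM with the double siRNA. SERPINF1, under the minimum, was listed at 0 in every scramble sample and at 0.96 to 1.76 TPM with the double siRNA. TYR, TYRP1 and PMEL are given below. VIM, an intermediate filament of mesenchymal cells that ARPE-19 is known to express, lay between 3954 and 7971 TPM. Markers of other cell types were also read. Of the 4 blood and immune markers found, CD68 alone reached the minimum, and their sum was 19.5 to 38.4 TPM with scramble and 34.95 to 52.9 TPM with the double siRNA. Photoreceptor and neural markers summed to 30.6 to 38.05 TPM with scramble and 21.7 to 33.1 TPM with the double siRNA. SYT1, a synaptic vesicle protein, stood lower in all 3 double-siRNA samples than in scramble, and GNAT1, of rod cells, is listed at 0 in all 6. Endothelial markers summed to at most 2.26 TPM in any sample. Fibroblast markers summed to 46.7 to 55.2 TPM with scramble and 57.6 to 74.9 TPM with the double siRNA, most of it PDGFRB and FAP, with COL3A1 at most 0.175 TPM. Their part in the results was not tested.

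The message of both targets was lower. PINK1 stood at 53.9, 57.7 and 55.8 TPM in scramble replicates 1 to 3 and at 15.3, 20.5 and 20.2 TPM in those of the double siRNA. The groups were far apart, and replicate 1 was the lowest of the double-siRNA samples. The mean was 33.5% of scramble (limma, log2 difference -1.54, SE 0.175, adjusted p = 0.00277). NFE2L2 stood at 89.2, 74.3 and 78.5 TPM with scramble and at 22.2, 30.1 and 34.4 TPM with the double siRNA. Again no double-siRNA sample reached the scramble range, and replicate 1 was the lowest. The mean was 35.8% of scramble (log2 difference -1.47, SE 0.253, adjusted p = 0.0194). The call of PINK1 was kept in each of the 6 fits that left out 1 sample, and that of NFE2L2 in 2 of them. In bulk RNA, fewer cells of a kind and less RNA per cell cannot be told apart, here and below.

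Here and below, a gene is called higher or lower when its adjusted p is under 0.05 over all 13708 genes, in a limma fit of log2(TPM + 1) over the 4 groups. The log2 difference is the double siRNA minus scramble on that scale, which understates the change of genes at low levels. Folds are on the same scale, and percentages of the scramble mean are of TPM itself. In all, 104 genes (0.759% of those tested) were called, 65 higher (0.474%) and 39 lower (0.285%). The called counts of each list below are to be read against these shares. The change was at least 2-fold in 53 of them, 27 higher and 26 lower. Over all genes the median log2 difference was 0.008, with 51.0% of genes above 0. In all 104 the 3 double-siRNA samples lay on 1 side of the 3 scramble samples. Over all genes tested that held on the higher side for 10.2% and on the lower side for 7.95%. In the same limma fit the unadjusted p was under 0.05 for 14.4% of all genes, 1063 higher and 905 lower.

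**Figure D1:**
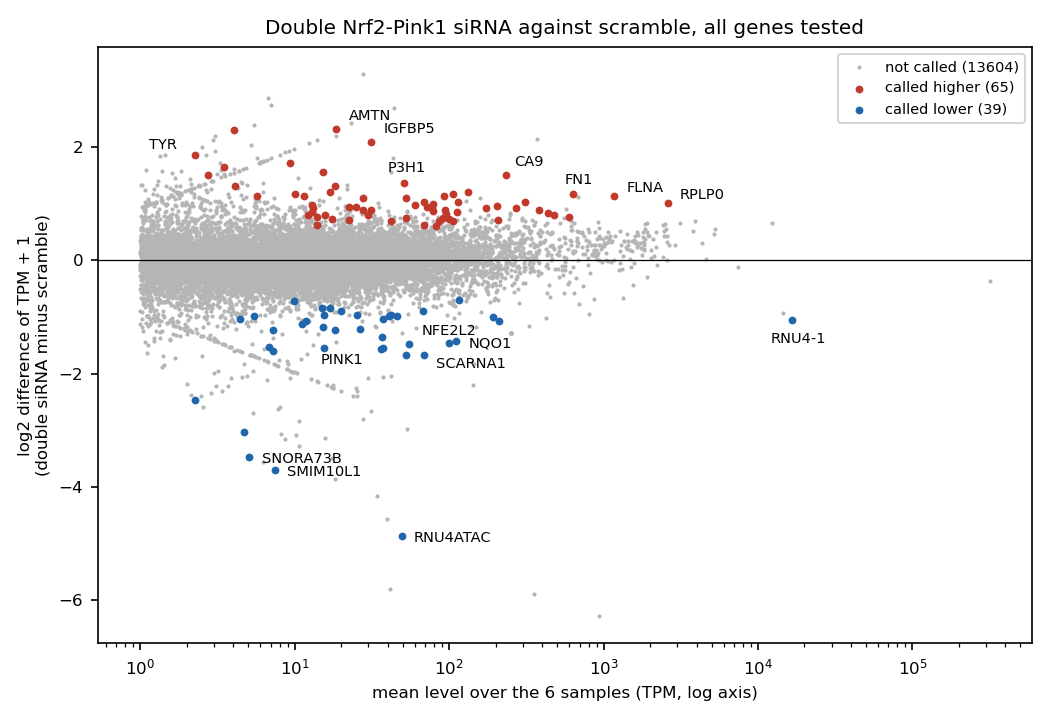
Each point is 1 of the 13708 genes tested, by its mean level over the 6 samples (TPM, log axis) and its log2 difference (double siRNA minus scramble). The 65 genes called higher (red) reach a log2 difference of 2.33 (AMTN), and among the 39 called lower (blue) RNU4ATAC, SMIM10L1 and SNORA73B lie farthest down, the last 2 listed at 0 in every double-siRNA sample.

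The double-siRNA samples differed more among themselves than the scramble samples did. Over 4940 genes averaging 20 TPM or more, the median SD of log2(TPM + 1) was 0.319 in the double-siRNA group and 0.122 in the scramble group, and 0.218 and 0.128 after removal of ENSG00000226958 (below). ENSG00000226958, an identifier with no entry in the name table, took 41.4, 29.4 and 15.5% of all TPM in double-siRNA replicates 1 to 3, against 32.4 to 36.4% with scramble. Since TPM sums to a fixed total, the other genes move the opposite way: the median gene lay at -0.18, 0.088 and 0.28 around the scramble mean in these 3 samples. Of the 65 genes called higher, 44 were highest in replicate 3 and 40 were lowest in replicate 1. This order was not kept after removal of that identifier and rescaling, when 39 of the 65 were highest in replicate 1 and 36 were lowest in replicate 3. After removal, 132 genes were called higher (0.906% of 14564) and 180 lower (1.24%), so that 42.3% of the calls were higher in place of 62.5%, and 95 of the 104 genes were called in both. A fit with the 2 compared groups alone called 20 genes, 16 of them among the 104. Of the 20, 3 were higher (IGFBP5, P3H1 and YBX3) and 17 lower, so the other higher genes described below were not called in that fit. Leaving out scramble replicate 1, 2 or 3 gave 41, 24 and 21 calls, and leaving out double-siRNA replicate 1, 2 or 3 gave 241, 64 and 73, and the number of these 6 fits (leave-outs) that kept a gene's call is given with most genes described below. Values after removal are given beside most gene groups below.

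Several enzymes that modify and crosslink collagen in the secretory pathway and outside the cell were higher. Of 28 tested, 6 were called higher and 0 lower, with a median log2 difference of 0.48 (0.38 after removal of ENSG00000226958, when 8 were called higher). P3H1, which hydroxylates proline in collagen chains, stood at 27.6, 28.6 and 27.3 TPM with scramble and at 73.0, 67.3 and 81.6 TPM with the double siRNA. The lowest double-siRNA sample was more than 2-fold above the highest scramble sample. P3H1 rose 2.59-fold (log2 SE 0.147, adjusted p = 0.00242) and its call was kept in 6 of 6 leave-outs. PPIB, the cyclophilin that works in a complex with P3H1, stood at 281, 315 and 336 TPM and at 473, 514 and 706 TPM. PLOD1, a lysyl hydroxylase of collagen, stood at 68.0, 76.9 and 79.0 TPM and at 138, 164 and 159 TPM. Neither gene's groups overlapped. PLOD1 rose 2.04-fold (log2 SE 0.149, adjusted p = 0.00809, 6 of 6 leave-outs), and PPIB rose 1.79-fold (adjusted p = 0.0302, 2 of 6 leave-outs).

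P4HA2 and P4HB form a prolyl 4-hydroxylase, P4HB being also the general protein disulfide isomerase of the endoplasmic reticulum (ER). P4HA2 stood at 56.2, 49.4 and 48.8 TPM with scramble and at 82.5, 99.0 and 134 TPM with the double siRNA. P4HB stood at 407, 451 and 476 TPM and at 722, 757 and 789 TPM. LOX, which crosslinks collagen and elastin, stood at 396, 334 and 310 TPM and at 512, 634 and 670 TPM. In each of these genes every double-siRNA sample lay above every scramble sample. The log2 differences were 0.99 for P4HA2 (adjusted p = 0.0255), 0.77 for P4HB (adjusted p = 0.0312) and 0.80 for LOX (adjusted p = 0.0302), and each call was kept in 1 of 6 leave-outs. Including those not called, 14 of the 28 had all 3 double-siRNA samples above all 3 scramble samples, beside 10.2% of all genes. On TPM as deposited, the list's own median over the scramble mean was 0.46, 0.51 and 0.54 in double-siRNA replicates 1 to 3. The median gene lay at -0.18, 0.088 and 0.28 in these samples, and at -0.028, -0.019 and -0.083 after removal. The list was not read per sample after removal, so the closeness of its 3 values holds for TPM as deposited only.

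The collagen chains themselves split. Of 15 tested, COL6A1 rose, COL4A5 fell and 13 were not called (median 0.29, and 0.20 after removal, with 2 called higher and 1 lower). COL6A1, a chain of microfibrillar type VI collagen, stood at 8.28, 8.83 and 9.30 TPM with scramble and at 18.3, 17.95 and 16.7 TPM with the double siRNA (log2 difference 0.93, SE 0.164, adjusted p = 0.0221). COL4A5, a chain of basement membrane collagen, stood at 24.0, 18.5 and 21.9 TPM and at 7.29, 11.02 and 8.72 TPM (log2 difference -1.18, SE 0.229, adjusted p = 0.0314). The groups did not overlap in either, and COL6A1 and COL4A5 were called in 2 and 1 of 6 leave-outs. COL4A5 was not called in a fit with the replicate number as a block. COL1A1, a chain of type I collagen, stood at 1.35, 0.55 and 2.87 TPM and at 7.48, 6.44 and 5.45 TPM and did not pass (log2 difference 1.62, adjusted p = 0.0777).

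Among fibronectin, matricellular and elastic fibre genes, 4 of 34 were called higher and 0 lower, with a median of 0.51 (0.42 after removal, 7 called higher). FN1, the matrix glycoprotein fibronectin, stood at 364, 396 and 374 TPM with scramble and at 688, 722 and 1234 TPM with the double siRNA. Replicate 3 was far above the other 2 double-siRNA samples. FN1 rose 2.24-fold (log2 SE 0.229, adjusted p = 0.0324, called in 1 of 6 leave-outs). HMCN1, a large protein of tissue linkages, stood at 8.59, 9.12 and 4.29 TPM and at 17.9, 21.9 and 29.4 TPM. FBLN5, which helps assemble elastic fibres, stood at 3.43, 3.08 and 2.97 TPM and at 7.26, 7.41 and 10.1 TPM. Both were apart from scramble in every sample and were called in 4 of 6 leave-outs each, with log2 differences of 1.56 (adjusted p = 0.0175) and 1.14 (adjusted p = 0.0164). THBS1, a matricellular glycoprotein that can activate latent TGF-beta, stood at 162, 163 and 141 TPM and at 226, 269 and 277 TPM (log2 difference 0.72, SE 0.135, adjusted p = 0.027, called in 1 of 6 leave-outs). Of the 34, 19 had every double-siRNA sample above every scramble sample, beside 10.2% of all genes.

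Cell surface and cytoskeletal partners of the matrix were called as well. FLNA, which crosslinks actin and ties it to integrins, stood at 761, 735 and 683 TPM with scramble and at 1390, 1467 and 2019 TPM with the double siRNA. All 3 double-siRNA samples were above scramble, replicate 3 the most (2.21-fold, log2 SE 0.159, adjusted p = 0.00681, called in 5 of 6 leave-outs). PDLIM7, an adaptor on actin fibres, stood at 74.6, 57.1 and 64.8 TPM and at 121, 114 and 130 TPM. FLNA and PDLIM7 were the 2 called of 36 actin and myofibroblast genes (median 0.34, and 0.23 after removal with 5 called higher), of which 17 were apart on the higher side, beside 10.2% of all genes. The integrin chains ITGB5 and ITGB8 were called and are named here after their values were seen, while ITGA5, ITGAV, ITGB1 and ITGB3, which are in the lists, were not called. ITGB5, of the vitronectin receptor by which RPE binds photoreceptor debris, stood at 211, 194 and 198 TPM and at 376, 390 and 482 TPM (2.06-fold, adjusted p = 0.0095, 4 of 6 leave-outs). ITGB8, of a receptor that activates latent TGF-beta, stood at 16.8, 15.4 and 15.045 TPM and at 6.48, 6.98 and 6.51 TPM. The 3 double-siRNA samples of ITGB8 nearly coincided, all below scramble, and its call was kept in 6 of 6 leave-outs (log2 difference -1.13, SE 0.134, adjusted p = 0.00277). MFGE8, a secreted ligand of the same vitronectin receptor, stood at 54.4, 49.0 and 59.8 TPM and at 84.0, 105 and 116 TPM (log2 difference 0.88, adjusted p = 0.0185, 2 of 6).

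The mesenchymal transition list, of transcription factors, cadherins, VIM, integrins and other mesenchymal genes, had 0 of 20 called by limma. Beside 0.759% of all genes this is no result about the list. CDH10, a cadherin outside the list named after its value was seen, was called higher (log2 difference 1.32, adjusted p = 0.0263). Of the 20, 75.0% lay above 0, beside 51.0% of all genes, and the median was 0.24 (0.13 after removal). On the higher side 4 were apart, beside 10.2% of all genes, and 0 on the lower. In limma 5 had an unadjusted p under 0.05 (4 higher and 1 lower), beside 14.4% of all genes. VIM stood at 3954, 4247 and 4689 TPM with scramble and at 4559, 5745 and 7971 TPM with the double siRNA, so the groups overlapped (log2 difference 0.47, adjusted p = 0.3). CDH2, the cadherin of mesenchymal and neural cells, stood at 184, 166 and 154 TPM and at 180, 252 and 262 TPM (adjusted p = 0.238). ZEB1, a repressor of epithelial genes, stood at 8.23, 9.27 and 7.20 TPM and at 8.25, 11.2 and 12.3 TPM (adjusted p = 0.429). Replicate 1 was level with scramble in CDH2 and ZEB1. CDH1, the epithelial cadherin, and SNAI1, its repressor, stayed under the minimum, with at most 0.795 and 0.46 TPM in any sample.

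**Figure D2:**
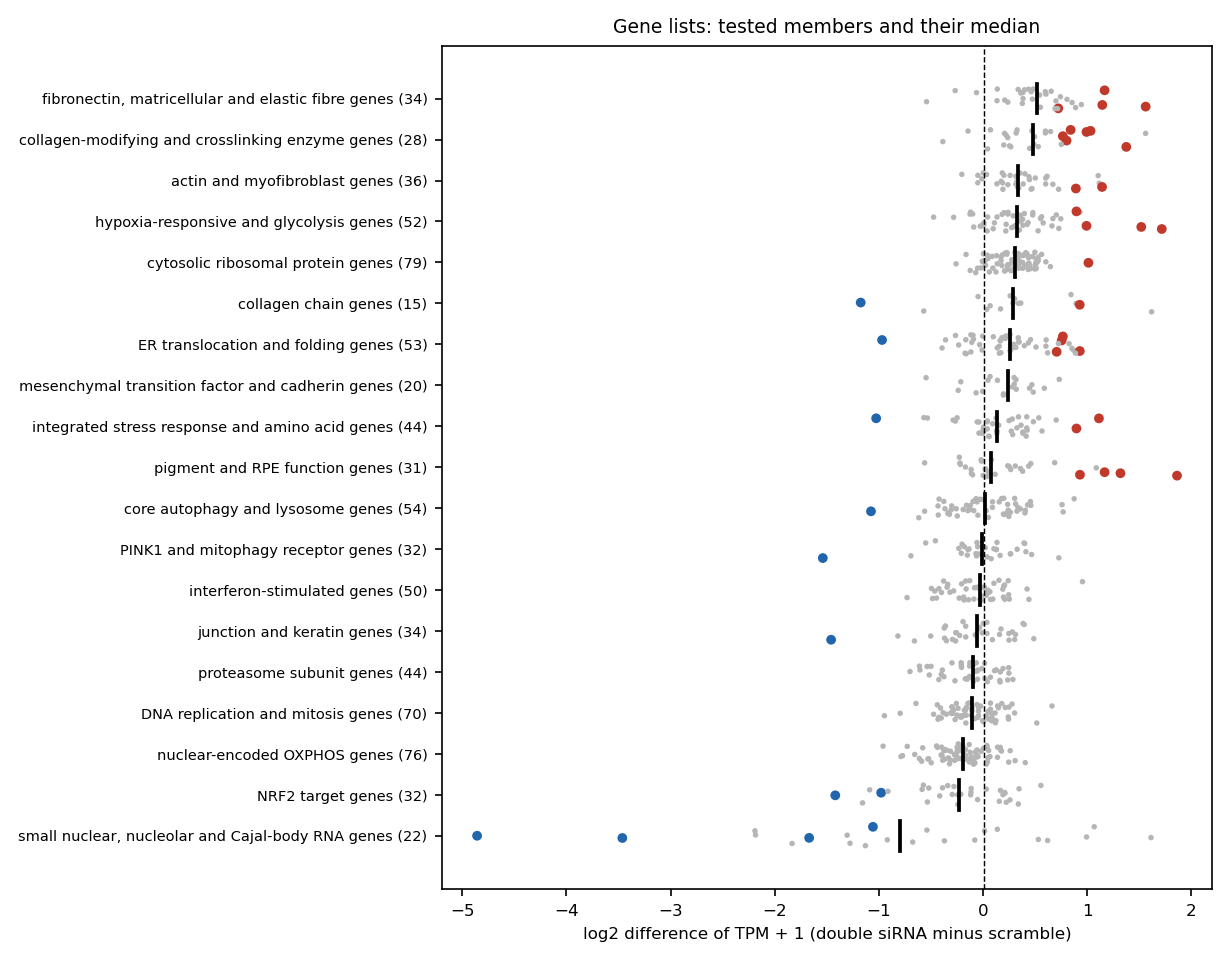
Each point is a tested gene by its log2 difference of TPM + 1 (double siRNA minus scramble), large red where called higher and large blue where called lower; a gene may be in more than 1 list. Black bars are list medians, numbers in brackets the genes tested, and the dashed line the median of all genes; the medians run from 0.51 for the fibronectin list to -0.80 for the small RNA list.

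GJA1 and CHRDL1 were the single calls of their lists, both lower. GJA1, the gap junction protein connexin 43, stood at 167, 131 and 141 TPM with scramble and at 34.4, 65.5 and 63.5 TPM with the double siRNA. Every double-siRNA sample was below the lowest scramble sample, replicate 1 the most (37.2% of the scramble mean, log2 difference -1.46, SE 0.261, adjusted p = 0.0233, called in 3 of 6 leave-outs). GJA1 was the 1 gene called of 34 junction and keratin genes, whose median was -0.060 (-0.16 after removal, when 3 were called lower). KRT8 stood at 993, 857 and 965 TPM and at 886, 1017 and 916 TPM, and KRT18 at 834, 733 and 866 TPM and at 685, 787 and 839 TPM, with overlap in both. CHRDL1, a secreted antagonist of BMP, stood at 51.4, 54.5 and 56.7 TPM and at 13.98, 25.3 and 15.5 TPM (33.7% of the scramble mean, log2 difference -1.56, SE 0.193, adjusted p = 0.00317, 6 of 6 leave-outs). It was the 1 gene called of 43 TGF-beta and BMP pathway genes (median -0.016, and -0.12 after removal with 2 called lower). TGFB2, a TGF-beta ligand, stood at 151, 141 and 140 TPM and at 138, 184 and 189 TPM, and FSTL1, a secreted glycoprotein, at 582, 456 and 460 TPM and at 488, 668 and 712 TPM, both with overlap.

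Matrix proteases and their inhibitors, and the IGF system, each held few calls. Of 28 protease and inhibitor genes MMP2 and TIMP3 rose (median 0.098, and 0.00063 after removal with the same number called). MMP2, a gelatinase, stood at 40.1, 35.2 and 41.0 TPM with scramble and at 70.9, 63.2 and 64.6 TPM with the double siRNA (log2 difference 0.76, SE 0.128, adjusted p = 0.0184, called in 3 of 6 leave-outs). TIMP3, an inhibitor held in the matrix under the RPE, stood at 211, 174 and 174 TPM and at 293, 362 and 421 TPM (log2 difference 0.93, adjusted p = 0.0302, called in 1 of 6). Both were apart from scramble in all samples. IGFBP5, a secreted IGF-binding protein, stood at 10.9, 12.2 and 10.4 TPM and at 53.7, 53.7 and 46.3 TPM. The 3 double-siRNA samples agreed closely, and IGFBP5 rose 4.29-fold (log2 SE 0.15, adjusted p = 4.04e-05, 6 of 6 leave-outs). It was the 1 gene called of 13 in the IGF axis (median 0.047, and -0.058 after removal with 2 called higher). IGFBP3 stood at 511, 380 and 310 TPM and at 571, 783 and 886 TPM (adjusted p = 0.0593), and IGFBP7 at 1395, 1229 and 1489 TPM and at 1058, 1186 and 1486 TPM.

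The machinery that makes and folds secreted proteins was partly higher. Of 53 ER translocation and folding genes, PDIA4, P4HB, HYOU1 and SEC31A rose, SPCS3 fell and 48 were not called (median 0.26, and 0.15 after removal with 8 called higher, HYOU1 not among them, and 1 lower). PDIA4, a protein disulfide isomerase, stood at 65.0, 66.5 and 72.7 TPM with scramble and at 116, 121 and 109 TPM with the double siRNA (log2 difference 0.75, SE 0.121, adjusted p = 0.0162). HYOU1, an ER chaperone induced by low oxygen, stood at 70.1, 60.2 and 64.05 TPM and at 121, 111 and 89.1 TPM. SEC31A, of the coat of vesicles that leave the ER, stood at 110, 122 and 119 TPM and at 160, 231 and 301 TPM. None of these groups overlapped, and replicate 1 was the highest double-siRNA sample in HYOU1 and the lowest in SEC31A. PDIA4, HYOU1 and SEC31A were called in 2, 2 and 1 of 6 leave-outs. HYOU1 lost its call after removal (limma, adjusted p = 0.11), and neither HYOU1 nor SPCS3 was called with the replicate number as a block. SPCS3, a subunit of the signal peptidase, stood at 19.6, 18.3 and 24.8 TPM and at 9.61, 10.7 and 10.005 TPM (log2 difference -0.97, adjusted p = 0.0434, called in 0 of 6). Outside the list, and named after their values were seen, PDIA5, another disulfide isomerase, and SRPRA, the receptor that docks ribosomes at the ER, rose by log2 0.93 (adjusted p = 0.0109, 4 of 6 leave-outs) and 0.85 (adjusted p = 0.0175, 2 of 6).

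Hypoxia-responsive and glycolytic genes were higher in 4 of 52 and lower in 0, with 26 of the 52 apart on the higher side (10.2% of all genes were) and a median of 0.33 (0.23 after removal, 7 called higher, DDIT4 not among them). CA9, a carbonic anhydrase at the cell surface and a standard marker of hypoxia signalling, stood at 96.9, 127 and 130 TPM with scramble and at 293, 266 and 491 TPM with the double siRNA. Every double-siRNA sample was more than 2-fold above the highest scramble sample. CA9 rose 2.86-fold (log2 SE 0.243, adjusted p = 0.0162, called in 3 of 6 leave-outs). SPAG4, a nuclear envelope protein, stood at 2.67, 3.21 and 5.87 TPM and at 11.5, 17.8 and 15 TPM (3.28-fold, adjusted p = 0.0245, 2 of 6). DDIT4, an inhibitor of mTORC1 that stress induces, stood at 19.7, 21.3 and 23.3 TPM and at 38.4, 44.7 and 39.3 TPM (log2 difference 0.90, adjusted p = 0.0379, and 0.0533 after removal, 1 of 6). P4HA2, given above, was the fourth. VEGFA, the vascular growth factor, stood at 31.5, 18.2 and 24.6 TPM and at 39.9, 43.7 and 39.98 TPM and did not pass (log2 difference 0.75, adjusted p = 0.134). LDHA, lactate dehydrogenase, stood at 1445, 1404 and 1484 TPM and at 1539, 2329 and 3321 TPM (adjusted p = 0.191), and the glucose transporter SLC2A1 at 368, 344 and 368 TPM and at 417, 468 and 471 TPM (adjusted p = 0.326).

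Because the factors that bind these promoters have short known motifs, the 250 bases before the start of the genes were read from RefSeq (GRCh38.p14) for the genes below, with the motif found on either strand in capitals. The hypoxia motif searched was ACGTG. The CA9 promoter (chr9:35673678-35673927, plus strand) holds it once, on the other strand and therefore written CACGT in this reading.
CA9: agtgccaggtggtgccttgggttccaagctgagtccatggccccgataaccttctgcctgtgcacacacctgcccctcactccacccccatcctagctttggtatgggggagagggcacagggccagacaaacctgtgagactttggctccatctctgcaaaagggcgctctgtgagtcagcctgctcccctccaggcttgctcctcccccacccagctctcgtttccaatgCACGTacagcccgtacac
The motif searched for MITF, a master factor of pigment cells, was TCATGTG. The promoters of TYR (chr11:89177625-89177874, plus strand) and TYRP1 (chr9:12693135-12693384, plus strand) hold it once each, starting 105 and 145 bases before the gene start, and are the 2 of 50 higher genes in the promoter table that do.
TYR: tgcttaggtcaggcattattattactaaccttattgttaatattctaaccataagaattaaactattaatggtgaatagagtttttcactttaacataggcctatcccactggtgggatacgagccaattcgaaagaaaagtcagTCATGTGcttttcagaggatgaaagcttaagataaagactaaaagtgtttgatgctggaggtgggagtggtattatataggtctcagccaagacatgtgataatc
TYRP1: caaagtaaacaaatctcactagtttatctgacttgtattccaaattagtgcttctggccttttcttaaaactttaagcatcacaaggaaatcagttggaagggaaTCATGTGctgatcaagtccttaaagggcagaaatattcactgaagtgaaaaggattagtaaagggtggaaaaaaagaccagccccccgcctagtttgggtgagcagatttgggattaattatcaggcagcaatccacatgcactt
For scale, TCATGTG is in 124 of 9899 tested genes with a promoter in the table (1.25%) and in 2.58% of all 27305 promoters. ACGTG is in 23.7% of tested genes, 11 of the 50 higher and 3 of the 20 lower genes. TGACNNNGC, the core of the NRF2 motif, is in 12.1% of tested genes, 9 of the 50 higher and 2 of the 20 lower ones. TCATGTG is also in 1 of the 20 lower genes, LAMTOR1. A match describes the letters only.

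TYR and TYRP1 were among 4 of 31 pigment and RPE function genes that rose, with 0 lower and a median of 0.080 (-0.023 after removal, with the same number called). TYR, the first enzyme of melanin synthesis, stood at 0.195, 0.545 and 0.465 TPM with scramble and at 3.75, 3.695 and 4.82 TPM with the double siRNA. The levels stayed low, but each double-siRNA sample was far above each scramble sample, and the call was kept in 6 of 6 leave-outs (log2 difference 1.86, SE 0.216, adjusted p = 0.00277). TYRP1, a later enzyme of that pathway, stood at 9.77, 8.29 and 11.7 TPM and at 24.4, 20.8 and 34.5 TPM (2.49-fold, log2 SE 0.192, adjusted p = 0.00809, 5 of 6). BACE2, the protease that processes the fibril protein of pigment granules, stood at 54.1, 70.9 and 64.1 TPM and at 111, 124 and 206 TPM (2.24-fold, adjusted p = 0.0211, 3 of 6). TIMP3, given above, was the fourth. MITF itself stood at 64.3, 57.8 and 60.5 TPM and at 59.2, 90.2 and 110 TPM, with overlap and no call, and PMEL, the fibril protein, at 4.03, 7.14 and 4.07 TPM and at 4.49, 3.03 and 4.84 TPM.

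**Figure D3:**
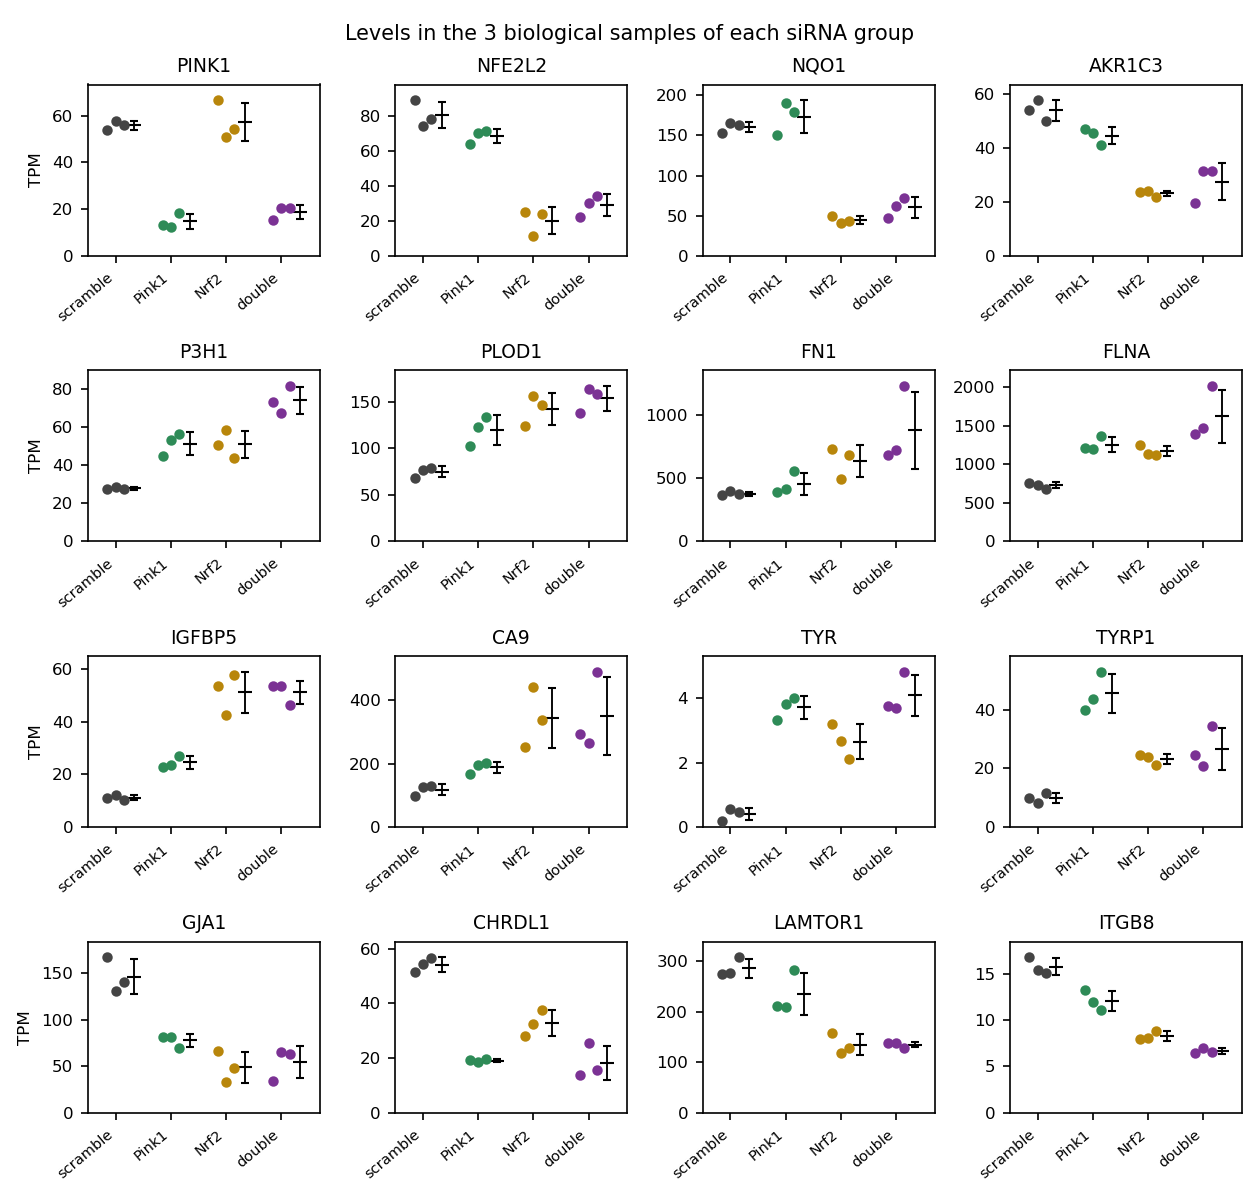
TPM of 16 genes (axes from 0) in the 3 biological samples of scramble, Pink1 siRNA, Nrf2 siRNA and double siRNA, with the mean and SD beside the points. PINK1 is low in both groups given Pink1 siRNA and NFE2L2 and NQO1 in both given Nrf2 siRNA; IGFBP5 lies at 46.3 to 53.7 TPM with the double siRNA, close to Nrf2 siRNA, while P3H1 is highest with the double siRNA.

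NRF2 target genes were lower in 2 of 32 and higher in 0, with a median of -0.23. NQO1, a quinone reductase, stood at 153, 166 and 163 TPM with scramble and at 46.6, 61.9 and 72.4 TPM with the double siRNA. No double-siRNA sample reached the scramble range, and NQO1 was called in 6 of 6 leave-outs (37.6% of the scramble mean, log2 difference -1.42, SE 0.168, adjusted p = 0.00277). AKR1C3, an aldo-keto reductase with near-identical relatives among which reads may be split, stood at 54.0, 57.5 and 49.8 TPM and at 19.5, 31.2 and 31.4 TPM (log2 difference -0.98, adjusted p = 0.0221, 3 of 6). After removal of ENSG00000226958 the median was -0.33 and 6 genes were called lower. One of those was TXNRD1, a thioredoxin reductase, which stood at 530, 514 and 497 TPM and at 301, 383 and 355 TPM as deposited, apart from scramble but not called (log2 difference -0.57, adjusted p = 0.0864, and 0.00786 after removal). Of the 32, 9 were apart on the lower side, beside 7.95% of all genes.

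Other classic targets of NRF2 did not pass. GCLM, of glutathione synthesis, stood at 11.8, 9.86 and 11.02 TPM with scramble and at 8.18, 7.95 and 9.04 TPM with the double siRNA (adjusted p = 0.638). SLC7A11, the cystine importer, stood at 8.82, 14.3 and 9.50 TPM and at 4.85, 8.96 and 7.95 TPM (adjusted p = 0.348). HMOX1, heme oxygenase, stood at 10.5, 8.65 and 13.3 TPM and at 9.59, 9.90 and 7.84 TPM (adjusted p = 0.698), and SRXN1, which repairs peroxiredoxins, at 46.3, 46.3 and 45.8 TPM and at 36.1, 45.4 and 53.5 TPM (adjusted p = 0.908). The groups overlapped in SLC7A11, HMOX1 and SRXN1 but not in GCLM. PON2, an antioxidant lactonase outside this list, named after its value was seen, stood at 56.4, 57.5 and 52.3 TPM and at 19.6, 32.5 and 33.9 TPM (log2 difference -0.97, adjusted p = 0.0302, 3 of 6 leave-outs).

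Among 32 genes of PINK1 and mitophagy receptors, PINK1 was the 1 called, and the median was -0.012 (-0.12 after removal, when 1 was called higher and 1 lower). BNIP3, a mitophagy receptor that hypoxia induces, stood at 90.5, 84.8 and 102 TPM with scramble and at 106, 166 and 205 TPM with the double siRNA. Its groups were apart, though replicate 1 only just, and it did not pass (log2 difference 0.73, adjusted p = 0.12, and 0.0384 after removal). VDAC2, a channel of the outer mitochondrial membrane, stood at 180, 153 and 177 TPM and at 121, 196 and 270 TPM, and SQSTM1, the autophagy adaptor p62 that NRF2 also regulates, at 548, 556 and 571 TPM and at 492, 577 and 664 TPM. Both overlapped.

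In core autophagy and lysosome genes 1 of 54 was called lower and 0 higher (median 0.014, and -0.090 after removal with 1 higher and 3 lower). LAMTOR1, which anchors mTORC1 signalling to the lysosome, stood at 274, 276 and 307 TPM with scramble and at 138, 138 and 128 TPM with the double siRNA. The 3 double-siRNA samples lay close together and all below scramble (47.2% of the scramble mean, log2 difference -1.08, SE 0.156, adjusted p = 0.00809, 5 of 6 leave-outs). The lysosomal proteases CTSD and CTSH did not pass: CTSD stood at 1591, 1722 and 1820 TPM and at 2263, 1971 and 1350 TPM, and CTSH at 653, 638 and 709 TPM and at 689, 837 and 1080 TPM.

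The mitochondrial lists had no call by limma, which beside 0.759% of all genes is no result about them. Of 76 nuclear genes of oxidative phosphorylation (OXPHOS), 9 had an unadjusted p under 0.05, all lower, beside 14.4% of all genes. Of the 76, 17 lay above 0, beside 51.0% of all genes. The OXPHOS median was -0.19 (-0.30 after removal, with 3 called lower). Per sample, on TPM as deposited, it was -0.51, -0.24 and 0.24 in double-siRNA replicates 1 to 3, with replicate 3 on the other side of scramble. On that scale the median gene lay at -0.18, 0.088 and 0.28 in these samples. The list was not read per sample after removal, so the side of replicate 3 holds for TPM as deposited only. COX7C, of cytochrome oxidase, stood at 387, 396 and 466 TPM and at 268, 311 and 549 TPM, and ATP5F1B, of ATP synthase, at 540, 537 and 530 TPM and at 479, 515 and 714 TPM. The 76 mitochondrial ribosomal protein genes (median -0.069, 7 with an unadjusted p under 0.05, and -0.17 with 2 called lower after removal), the 49 import, chaperone and dynamics genes (median -0.10, 5 with an unadjusted p under 0.05, and -0.21 with 0 called after removal) and the 37 genes of the TCA cycle and mitochondrial antioxidants (median 0.056, 5 with an unadjusted p under 0.05, and -0.047 with 2 called lower after removal) had 0 calls on TPM as deposited as well. TXNRD2, the mitochondrial thioredoxin reductase, stood at 17.98, 15.7 and 20.9 TPM and at 22.8, 17.6 and 17.1 TPM. BOLA3, which helps insert iron-sulfur clusters into mitochondrial enzymes and was named after its value was seen, fell by 0.90 on the log2 scale (adjusted p = 0.0462, 1 of 6 leave-outs).

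Among the genes called lower were 4 nuclear sequences that resemble mitochondrial DNA, picked after their values were seen and without a list of such sequences. Of 695 pseudogenes tested 5 were called lower (0.719%, beside 0.285% of all genes) and 2 higher (0.288%, beside 0.474%). The nuclear copies MTND2P28 and MTND6P4 stood at 142 to 149 and 49.3 to 58.9 TPM with scramble, and at 84.5 to 97.1 and 16.1 to 26.3 TPM with the double siRNA. ENSG00000271043 stood at 79.5, 78.4 and 84.5 TPM and at 30.0, 24.6 and 20.3 TPM (log2 difference -1.67, SE 0.214, adjusted p = 0.00414, 6 of 6 leave-outs). ENSG00000269028 stood at 257, 268 and 242 TPM and at 111, 162 and 116 TPM (log2 difference -0.996, adjusted p = 0.0164, 3 of 6). The last 2 are named MTRNR2L2 and MTRNR2L12 in the GENCODE annotation and are near copies of the mitochondrial ribosomal RNA. No group overlapped in these 4, and reads from them and from the mitochondrial genome cannot be told apart in TPM. The genes encoded in mitochondrial DNA are not analysed here.

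Small RNAs without a long poly-A tail formed the class with the largest share of lower calls. Of 156 small RNA genes tested, 4 were called lower (2.56%, beside 0.285% of all genes) and 0 higher, with a median of -0.86. RNU4-1, the U4 RNA of the spliceosome, stood at 21936, 20340 and 24681 TPM with scramble and at 9661, 13713 and 9216 TPM with the double siRNA (48.7% of the scramble mean, log2 difference -1.06, SE 0.202, adjusted p = 0.0302). U4 has 2 near-identical genes, and RNU4-1 and RNU4-2 together took 3.64 to 4.55% of all TPM with scramble and 1.79 to 2.65% with the double siRNA. SCARNA1, a guide RNA of Cajal bodies, stood at 111, 70.6 and 132 TPM and at 47.8, 22.9 and 27.2 TPM (log2 difference -1.67, adjusted p = 0.0175). SNORA73B, a small nucleolar RNA, was at 11.2, 11.3 and 7.95 TPM with scramble, and no double-siRNA sample had a value above the listed 0. RNU4ATAC, the U4 counterpart of the minor spliceosome, was at 121, 47.4 and 103 TPM with scramble, and of the double-siRNA samples replicate 1 had 24.1 TPM while the others are listed at 0. No group overlapped in these 4. RNU4-1 and RNU4ATAC were called in 1 of 6 leave-outs, SCARNA1 in 3 and SNORA73B in 6. The libraries were prepared from mRNA, and the part of RNA selection in these values was not tested.

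Other identifiers listed at 0 were SMIM10L1 and ENSG00000253356. SMIM10L1 was at 10.5, 28.7 and 5.47 TPM with scramble, and ENSG00000253356 at 4.72, 3.92 and 4.98 TPM, and every double-siRNA sample is listed at 0 for both. Each was called in 1 of 6 leave-outs. TMEM167AP2, a pseudogene whose parent gene may share its reads, was at 9.23, 4.79 and 13.7 TPM with scramble, and replicate 1 of the double siRNA had 0.6 TPM while its other samples are listed at 0. ENSG00000261604, which overlaps HMGCS1 in the annotation, stood at 23.1, 22.5 and 24.5 TPM and at 5.77, 7.44 and 9.31 TPM (log2 difference -1.54, SE 0.187, adjusted p = 0.00308, 6 of 6 leave-outs). ENSG00000267469, which overlaps TLE5, stood at 33.8, 39.0 and 39.1 TPM and at 16.1, 17.4 and 13.2 TPM. Whether the counting used strand is not given in the sources used here, so reads of overlapping genes may be mixed.

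Ribosomal protein genes lay mostly above scramble with 1 call. Of 79 tested, RPLP0 rose, 72 lay above 0, and the median was 0.30 (0.20 after removal, with 2 called higher). RPLP0, of the stalk of the large subunit, stood at 1729, 1589 and 1756 TPM with scramble and at 2547, 3384 and 4586 TPM with the double siRNA (2.02-fold, adjusted p = 0.0436, called in 1 of 6 leave-outs), and its near-copy RPLP0P6, which may share its reads, at 54.3 to 59.1 and 98.6 to 165 TPM. RPS2 stood at 3071, 2957 and 3280 TPM and at 4112, 3865 and 5632 TPM and did not pass (adjusted p = 0.234). The list's median was -0.11, 0.24 and 0.78 in double-siRNA replicates 1 to 3, in the reverse order of their shares of ENSG00000226958 (41.4, 29.4 and 15.5%), whose part in it was not tested.

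**Figure D4:**
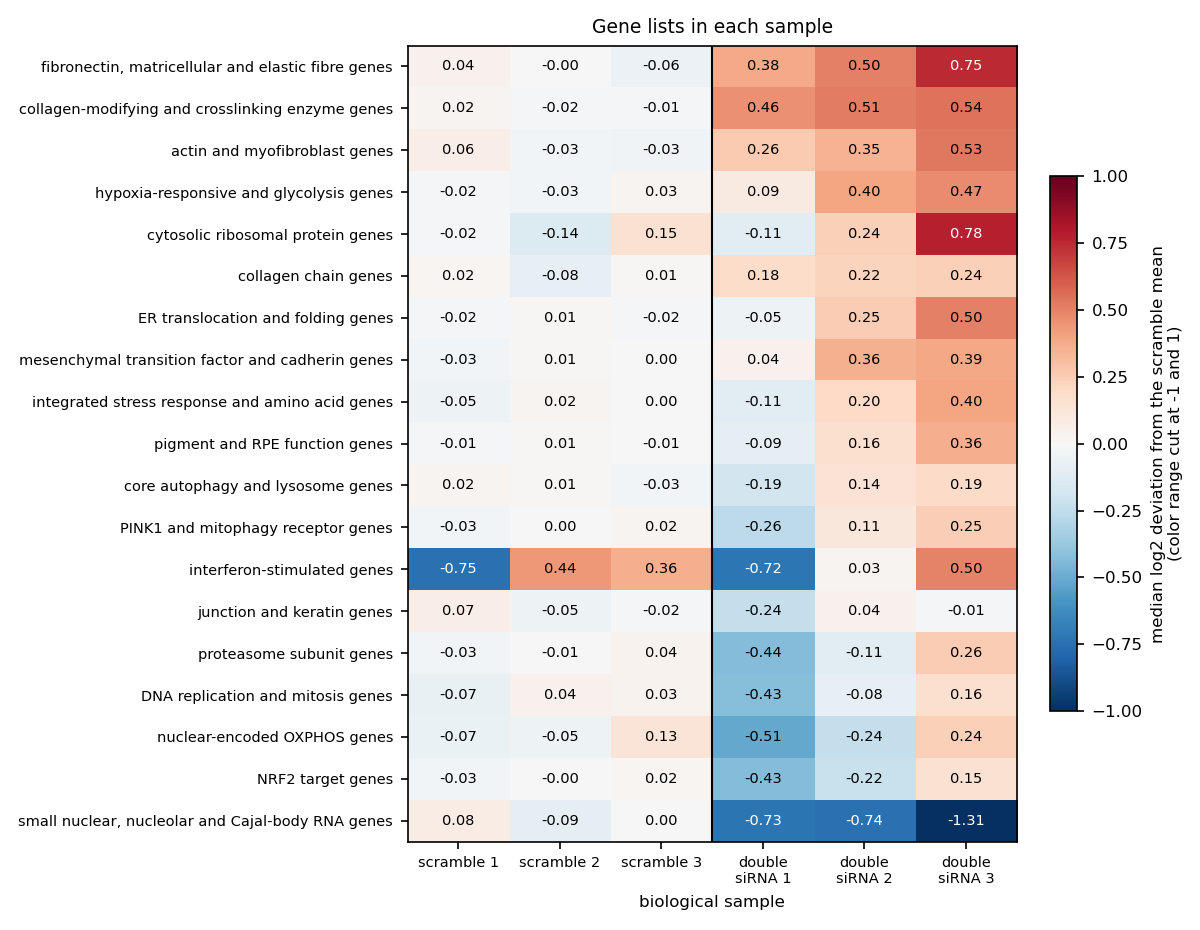
Each cell is the median over a list's tested genes of the log2 deviation from the scramble mean in 1 biological sample. Red is above and blue below, on TPM as deposited, before removal of ENSG00000226958. The collagen-modifying list reads 0.46, 0.51 and 0.54 in double-siRNA replicates 1 to 3, whereas the OXPHOS list runs from -0.51 to 0.24 and the ribosomal protein list from -0.11 to 0.78.

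Amino acid and stress genes went both ways. Of 44 genes of the integrated stress response and amino acid metabolism, SLC7A8 and DDIT4 rose, BCAT1 fell and 41 were not called (median 0.13, and 0.028 after removal). SLC7A8, a transporter of neutral amino acids, stood at 20.04, 17.1 and 14 TPM with scramble and at 44.4, 35.8 and 33.5 TPM with the double siRNA (2.16-fold, log2 SE 0.185, adjusted p = 0.0175, 4 of 6 leave-outs). BCAT1, which starts the breakdown of branched-chain amino acids, stood at 46.5, 49.8 and 55.0 TPM and at 22.8, 32.3 and 19.1 TPM (49.1% of the scramble mean, adjusted p = 0.0182, 4 of 6). APIP, an enzyme of methionine salvage outside the list, named after its value was seen, stood at 25.7, 26.7 and 25.7 TPM and at 9.65, 10.5 and 11.4 TPM (40.4%, log2 difference -1.23, SE 0.177, adjusted p = 0.00809, 6 of 6).

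Of the genes of growth arrest and apoptosis described here, MDM2 was the 1 called. MDM2, a ubiquitin ligase, stood at 79.5, 81.1 and 104 TPM with scramble and at 45.3, 61.7 and 36.1 TPM with the double siRNA (log2 difference -0.89, SE 0.184, adjusted p = 0.0434, called in 1 of 6 leave-outs). With the replicate number as a block MDM2 was not called. CDKN1A, the cell cycle inhibitor p21, stood at 211, 228 and 217 TPM and at 260, 267 and 276 TPM, and PLK2, a polo-like kinase, at 337, 332 and 316 TPM and at 349, 454 and 550 TPM, both apart and not called. BAX, of the mitochondrial death pathway, stood at 58.3, 51.8 and 64.7 TPM and at 61.9, 65.3 and 35.8 TPM, and BCL2, its opponent, at 4.11, 1.55 and 1.34 TPM and at 1.90, 2.56 and 4.36 TPM, both with overlap.

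Lists of proliferation and immunity had 0 calls by limma, which beside 0.759% of all genes is no result about them. The unadjusted p was under 0.05 for 14.4% of all genes. Of 70 replication and mitosis genes 8 had an unadjusted p under 0.05 (median -0.11, and -0.21 with 1 called lower after removal), with MKI67, a marker of cycling cells, at 37.7, 41.2 and 41.9 TPM with scramble and at 33.7, 42.3 and 61.3 TPM with the double siRNA. Of 50 interferon-stimulated genes 1 had an unadjusted p under 0.05, 0 were apart in either direction, and the median was -0.033 (-0.14 after removal, 0 called). That list differed within groups: its median was -0.75, 0.44 and 0.36 in scramble replicates 1 to 3 and -0.72, 0.026 and 0.50 in those of the double siRNA. IFI6 stood at 249, 1270 and 1175 TPM and at 353, 463 and 896 TPM. Of 18 genes of MHC class I antigen presentation 2 had an unadjusted p under 0.05 (median -0.20, and -0.30 with 0 called after removal), with B2M at 782, 1192 and 1119 TPM and at 357, 667 and 1082 TPM, which overlapped. Scramble replicate 1 and double-siRNA replicate 1 were the low samples in both of these lists.

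Of the 104 genes called, 63 were in none of the lists. AMTN, a secreted protein of basal laminae around teeth, stood at 7.91, 3.23 and 4.65 TPM with scramble and at 15.98, 30.9 and 48.8 TPM with the double siRNA. On the TPM + 1 scale it had the largest fold of the genes called higher (5.02-fold, log2 SE 0.338, adjusted p = 0.00809, 6 of 6 leave-outs), and replicates 1 and 3 were its lowest and highest double-siRNA samples. In the ratio of mean TPM, RPL29P11 and TYR, both at low levels, exceeded it. YBX3, a cold shock domain protein that binds mRNA, stood at 73.7, 84.3 and 78.5 TPM and at 163, 177 and 215 TPM (2.32-fold, log2 SE 0.159, adjusted p = 0.00414, 6 of 6). SLC22A3, an organic cation transporter, stood at 11.3, 9.60 and 8.05 TPM and at 16.6, 26.1 and 29.7 TPM, and MEIS3, a homeobox factor, at 6.48, 6.97 and 3.99 TPM and at 13.4, 13.9 and 15.1 TPM. Their log2 differences were 1.21 (adjusted p = 0.0194, 2 of 6) and 1.18 (adjusted p = 0.0162, 5 of 6), and neither overlapped scramble. Lower genes of this kind included SCG2, a protein of secretory granules, at 13.3, 9.67 and 10.9 TPM and at 2.18, 3.68 and 3.45 TPM (27.5% of the scramble mean, log2 difference -1.59, SE 0.208, adjusted p = 0.00414, 6 of 6). NUP43, of the nuclear pore, stood at 9.41, 12.7 and 9.31 TPM and at 3.41, 5.81 and 2.75 TPM (log2 difference -1.23, adjusted p = 0.0214, 2 of 6), and ACYP2, an acylphosphatase, at 11.9, 13.1 and 6.66 TPM and at 1.8, 3.55 and 3.63 TPM (-1.52, adjusted p = 0.0317, 1 of 6).

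Further genes of the 104 are given by their log2 differences alone. Higher by at least 1 were AMIGO2 (1.14), CNN3-DT (1.11) and PPP1R13L (1.03), and, at means under 5 TPM, RPL29P11 (2.30), FOLR1 (1.66), IVL (1.52) and CDH10 (1.32). RPL29P11 is a pseudogene whose parent may share its reads. Between 0.93 and 1 lay FOXP1 (0.98), IDUA (0.98), PRSS12 (0.96), ABCB5 (0.95), KLF7 (0.94) and ENSG00000234961 (0.94), which overlaps VIM. Further lower genes were FRA10AC1 (-1.07), NEAT1 (-1.04), UHMK1 (-0.98), ASIC1 (-0.97), ANP32E (-0.97), REEP3 (-0.85), the pseudogene RPS24P19 (-0.84) and PALMD (-0.71). Of all 104, 16 were called in each of 6 leave-outs, 6 of them higher (AMTN, IGFBP5, TYR, P3H1, YBX3 and PLOD1) and 10 lower (PINK1, NQO1, CHRDL1, SCG2, APIP, ITGB8, SNORA73B, TMEM167AP2, ENSG00000261604 and ENSG00000271043). PALMD, REEP3, SPCS3 and IDUA were called in 0 of 6.

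The double siRNA was set beside each single siRNA in the same fit. Against Pink1 siRNA 6 of 13708 genes were called (0.0438%). NQO1 was at 60.3 ± 12.96 TPM (SD, n = 3) with the double siRNA and 173 ± 20.8 TPM with Pink1 siRNA (log2 difference -1.52, adjusted p = 0.00715). SCG2 was at 3.1 ± 0.81 and 11.03 ± 2.09 TPM (-1.56, adjusted p = 0.02) and BCAT1 at 24.7 ± 6.79 and 54.5 ± 0.518 TPM (-1.14, adjusted p = 0.0356). MMP2 was at 66.2 ± 4.06 and 32.6 ± 1.79 TPM (0.998, adjusted p = 0.0193) and IGFBP5 at 51.2 ± 4.30 and 24.6 ± 2.33 TPM (1.03, adjusted p = 0.0298). ITGBL1, an integrin-like protein, was at 35.1 ± 7.29 and 15.1 ± 1.68 TPM (1.15, adjusted p = 0.0298) and was not called against scramble, where it stood at 34.3 ± 3.87 TPM.

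Against Nrf2 siRNA 2 genes were called (0.0146%). PINK1 was at 18.7 ± 2.93 TPM with the double siRNA and 57.2 ± 8.35 TPM with Nrf2 siRNA (log2 difference -1.57, adjusted p = 0.00837). SCHIP1 was at 4.03 ± 1.18 and 21.4 ± 9.56 TPM (-2.10, adjusted p = 0.0155) and at 3.22 ± 0.537 TPM with scramble, so it was near its scramble level with the double siRNA. The level of P3H1 with the double siRNA, 74.0 ± 7.20 TPM, did not differ from that with Pink1 siRNA (44.6 to 56.2 TPM, log2 difference 0.52, SE 0.147, adjusted p = 0.401) or Nrf2 siRNA (43.9 to 58.1 TPM, 0.54, SE 0.147, adjusted p = 0.396) past the threshold, though all 3 double-siRNA samples were above all 6 single-siRNA samples. TYRP1 was at 20.8 to 34.5 TPM with the double siRNA, 40.01 to 52.995 TPM with Pink1 siRNA and 21.1 to 24.6 TPM with Nrf2 siRNA (double minus Pink1 siRNA -0.78, adjusted p = 0.295). HMCN1 was at 17.9 to 29.4, 34.2 to 51.5 and 9.51 to 13.3 TPM in these groups, with the double siRNA between the single ones in every sample and called different from neither (adjusted p = 0.446 and 0.396). All 3 siRNA groups share the scramble samples, so their differences from scramble are not independent of each other.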

How the data were processed

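RNA of ARPE-19 cells was sequenced from stranded mRNA libraries, per the labels' protocols, and the authors deposited 1 table of TPM values per gene. The submitters' processing notes name STAR, RSEM, edgeR, GRCh37 and hg19, while the sources used here give neither their roles nor their versions. The TPM columns sum to 999678 to 999945, and since TPM keeps no depth, the depth of each sample and the precision it gives are unknown. The name table holds 22789 of the 24053 identifiers and gives 19325 of them a symbol.

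The 2 technical replicates of each sample were averaged (Python 3.11.15, pandas 2.3.3, numpy 2.4.6). Genes averaging 1 TPM or more in these 6 samples were fitted as log2(TPM + 1) in R 4.3.3 with limma 3.58.1 (trended variance, 4 groups, no covariate), with Benjamini-Hochberg adjustment over all genes tested and a threshold of 0.05. The fit was tested on simulated data drawn with the same spread in every group. The real groups differ in spread, so that test does not show how the fit performs on them. The labels call the samples biological replicates but do not say what was separate between them. The p-values rest on a spread between samples that is pooled over all 4 groups. The median SD of log2(TPM + 1) was 0.319 with the double siRNA, and 0.122 with scramble, 0.172 with Pink1 siRNA and 0.167 with Nrf2 siRNA. The pooled spread is therefore not that of the double-siRNA samples themselves. For a single gene, 3 against 3 samples allow no two-sided exact permutation p below 0.1.

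The comparison, gene lists and tests were chosen with earlier results of these data known. Named genes are PINK1 and NFE2L2, called genes averaging 5 TPM or more whose groups do not overlap (the 20 largest in each direction), called list members, the 2 most abundant members of lists with few calls, and a set of marker and pathway genes. Promoter sequences are RefSeq's (GRCh38.p14), and no coordinate was taken from the deposited table. Alternatives were other pseudocounts, filters, scalings, groups in the fit, a replicate block, single technical replicates, sample weights and leaving out each sample.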

Additional observations from a re-analysis of the deposited data

How the results depend on the processing

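Of the 104 genes called against scramble, 0 changed sign under any of the 18 alternatives, 6 of which leave out 1 sample. The groups do not overlap in any of these genes, so only rescaling or single technical replicates could have changed a sign. For the other alternatives the sign was fixed in advance. The count was 68 with no filter on low values, 20 with the compared groups alone, 55 from technical replicate 2 alone, 340 with median-of-ratios rescaling and 312 with ENSG00000226958 removed and the samples rescaled. Leaving out 1 sample gave 21 to 241 calls, the highest without double-siRNA replicate 1. With removal and the compared groups alone together, chosen after seeing the data, it was 78. The cause of these shifts was not tested. With the replicate number as a block (replicate block) it was 109, 88 of them among the 104. Genes described above that were not called with the block include COL4A5, MDM2, HYOU1, SPCS3 and ACYP2. Over all genes tested, same-numbered samples did not deviate together (r = -0.031, -0.035 and 0.028). In the interferon-stimulated list replicate 1 was the low sample of both groups (median -0.75 with scramble and -0.72 with the double siRNA). Whether same-numbered samples share more than a number was not tested.

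Alternatives for the direct contrasts were also added after seeing the data. Against Pink1 siRNA the 6 calls became 18 with median-of-ratios rescaling, 21 with removal, 10 with sample weights, 1 with the replicate block, 1 with technical replicate 1 alone, and 5 to 21 without 1 double-siRNA replicate, 21 without replicate 1. Against Nrf2 siRNA the 2 calls became 1 and 0 with technical replicate 1 or 2 alone (limma, 900 genes at an unadjusted p under 0.05 in the latter) and 1 to 4 without 1 double-siRNA replicate. Single-siRNA samples were not left out in turn. Of 61 genes followed without a call, 27 had another sign under at least 1 alternative and 6 were called under at least 1. Unknown depth limits what can be said of genes at low TPM.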
